A study of Mus musculus with 3 samples.

Results

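Transcripts of 75 mitochondrial ribosomal protein genes were compared between mouse embryonic stem (ES) cells and mouse embryonic fibroblasts (MEF). The genes were all those whose name in the scanner files begins with Mrpl or Mrps and a number, 46 Mrpl genes and 29 Mrps genes out of 27962 gene names on the array. They were covered by 125 of 41174 gene probes, and the brightest probe of a gene gave its value. RNA from 3 replicates of untreated ES cells, in the Cy3 channel, was put on 3 two-colour Agilent arrays, each together with RNA of MEF, labelled with Cy5. The name mix2 is given to the Cy5 RNA in a sentence of the design, where every sample label gives MEF; the labels were followed, and MEF is the denominator of every ratio only if they are right. Medium for the ES cells held fetal serum with leukemia inhibitory factor, which keeps them self-renewing, and that for the MEF held fetal serum without a stated cytokine; no strain, age or genotype is given for either. The comparison asked how expression in ES cells differs from that in MEF.

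Mitochondria carry their own ribosome, the mitoribosome, which descends from that of bacteria and translates the few proteins of the inner membrane that mitochondrial DNA still encodes, all of them parts of the respiratory chain and ATP synthase. Its RNAs come from mitochondrial DNA, while every one of its proteins is encoded in the nucleus, made in the cytosol and imported. Proteins named Mrpl belong to the large subunit, which joins amino acids, and proteins named Mrps to the small subunit, which reads the messenger RNA, although structures later placed the products of Mrps18a and Mrps30 in the large subunit. Proteins with low numbers are named after their bacterial relatives, and most of those with higher numbers were added during the evolution of mitochondria.

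All ratios are ES cells over MEF, and a level is the normalized signal of 1 probe in arbitrary units, to be set against the same probe in the other cell type only. MEF counts as 1 control sample, and no test holds its own spread. The dyes were not swapped, so a dye's bias for single probes remains in each ratio. The labels do not say whether the ES cell replicates were separate cultures; p-values therefore measure a spread between arrays that may be technical. In bulk RNA, fewer cells of a type and less RNA per cell cannot be told apart. Across 19656 genes, the ratios of any 2 arrays correlated with r of 0.998, and the SD over arrays of a log2 ratio had a median of 0.0285. All 8 ES cell markers were called higher in ES cells and all 8 fibroblast markers lower. All 6 macrophage markers were well above background in both channels and were also called lower in ES cells, with summed signals of 7908 to 8226 in ES cells and 388252 to 418358 in MEF. Of 6 markers of proliferating cells, 5 were called higher, and their summed signal was 338147 to 344327 in ES cells and 89847 to 90852 in MEF. Of the endothelial markers, Pecam1 and Tek were called higher and Kdr lower, while Cdh5 was not well above background. The part of macrophages in the MEF RNA, or of cell division, in the results below was not tested.

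Most mitoribosomal protein genes had somewhat more RNA in ES cells than in MEF, and none was called lower. Every one of the 75 gave signal well above background for ES cells and for MEF on each array, and none was saturated. Their log2 ratios had a median of 0.51, against -0.050 over all 19681 genes tested, and ran between -0.95 (Mrps6) and 2.06 (Mrpl15). The members' median was 0.49, 0.52 and 0.51 on arrays 1, 2 and 3. Of the 75 genes, 61 (81.3%) had a ratio above 0, where 48.1% of all tested genes did, and 60 of the 61 were above 0 on all 3 arrays. The exception was Mrpl30, with -0.0080, -0.00025 and 0.032. The share above 0 depends on the scaling of the arrays: with median centring in place of loess, 71 members were above 0, and the median of all genes itself moved to 0.11, with the members' median at 0.76.

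Calls required an adjusted p under 0.05 (limma, Benjamini-Hochberg over all tested genes) together with a difference of at least 2-fold. By this rule 16 members (21.3%) were higher in ES cells, close to the 20.3% of all tested genes called higher. None was called lower, where 22.4% of all tested genes were. The count called higher was thus not particular to these genes with loess, but it depended on the scaling. With median centring 37.3% of members and 24.7% of all genes were called higher, and with the scanner software's processed signals 32% and 26.3%. All other counts in this paragraph are with loess. With the size limit at 1.5-fold and the same limit on the adjusted p, 33 members (44%) were higher, against 30.4% of all genes, and 2 members (2.67%) were lower, against 31.7% of all genes. The remaining 40 lay within 1.5-fold either way. The members lay closer together than genes at large, since the SD over genes of the log2 ratio was 0.62 among members and 1.51 among all tested genes. This was not particular to them, since the SD was 0.58 among the cytosolic ribosomal protein genes described below. In the other related lists it ran from 0.51 (translation factors and messenger RNA chaperones) to 1.14 (genes for charging mitochondrial tRNA). The fold minimum decided the calls, since 71 members, 59 above 0 and 12 below, had an adjusted p under 0.05, as did 95.4% of all genes. The last member inside the 2-fold threshold was Mrps27 at 1.06 ± 0.013 (log2, SD, n = 3 arrays), and the first members outside it were Mrpl46 at 0.998 ± 0.010 and Mrpl24 at 0.99 ± 0.030. On the 3 arrays Mrpl46 stood at 1.01, 1.00 and 0.99 and Mrpl24 at 1.02, 0.96 and 0.99.

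**Figure D1:**
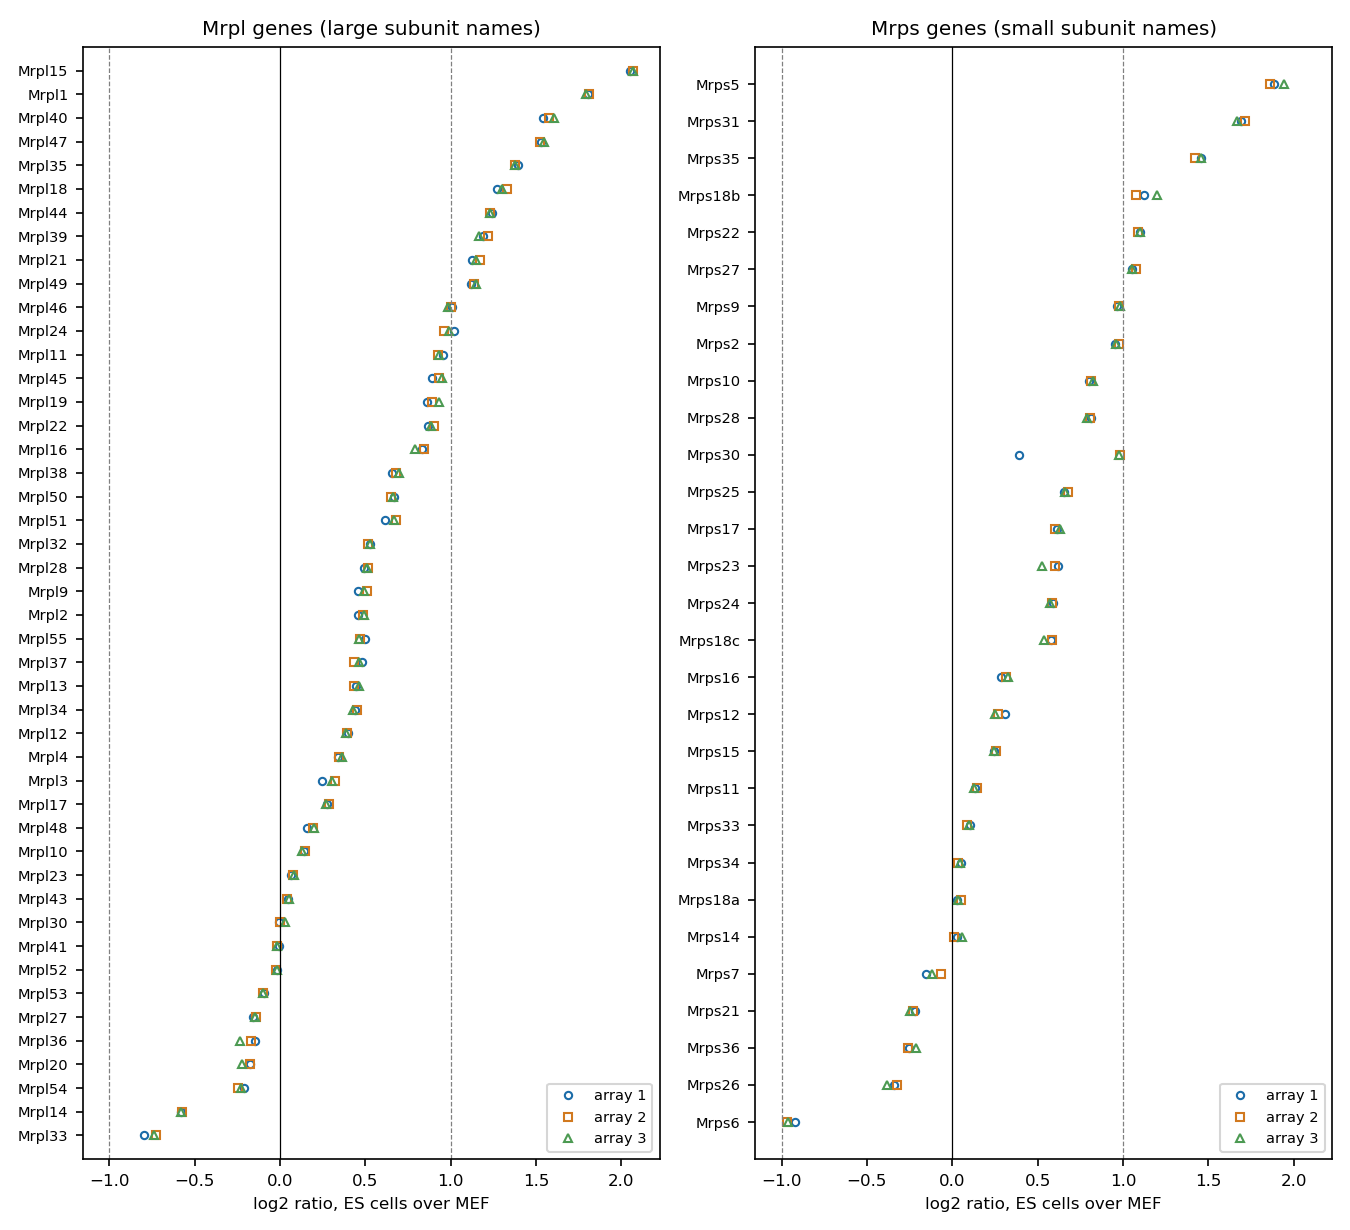
Log2 ratio of ES cells over MEF on each of the 3 arrays (symbols) for the 46 Mrpl genes (left) and the 29 Mrps genes (right), ordered by their mean; dashed lines mark a 2-fold change. Most genes lie right of 0, 16 lie beyond the right dashed line and none beyond the left one, and the symbols of a gene nearly coincide except for Mrps30.

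In the large subunit 10 of 46 genes (21.7%) were called higher, against 20.3% of all tested genes; the median log2 ratio over the 46 was 0.48. Mrpl15, whose product is the counterpart of bacterial L15, had the highest ratio of all members. Its signals were 26942, 27762 and 27480 in ES cells, against 6498, 6618 and 6543 in MEF, a 4.18-fold difference (2.06 ± 0.010, log2, SD, n = 3 arrays, adjusted p = 1.98e-07, limma). The probe behind this value and the brightest probe of Mrps5, the highest of the small subunit names, are given below in lower case, 5′ to 3′, with the mm7 coordinates of the files. That of Mrpl15 lies on the minus strand at chr1:4773178-4773237, and that of Mrps5 on the plus strand at chr2:127341716-127342266, a span of 551 bases for 60 letters, so that it crosses at least 1 splice junction. No annotation of mm7 was used, and whether they are coding was not determined.
Mrpl15 probe: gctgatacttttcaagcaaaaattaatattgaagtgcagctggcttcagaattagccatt
Mrps5 probe: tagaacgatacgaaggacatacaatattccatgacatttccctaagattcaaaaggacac

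Mrpl1, the counterpart of the L1 protein of the mobile stalk beside the exit for spent tRNA, had signals of 12602, 12267 and 12162 in ES cells, against 3606, 3494 and 3504 in MEF (3.49-fold, 1.80 ± 0.0082). Mrpl40, a protein without bacterial counterpart, had 36608, 39240 and 38938 in ES cells and 12586, 13140 and 12806 in MEF (2.98-fold, 1.57 ± 0.032). For Mrpl47, the counterpart of bacterial L29 near the exit tunnel for the nascent chain, the brightest probe read 9266, 8997 and 8985 in ES cells and 3209, 3132 and 3071 in MEF (1.53 ± 0.014). In all of them the lowest ES cell signal exceeded the highest MEF signal by more than the spread between arrays. How many of all tested genes were so separated was not counted, but 95.4% of them had an adjusted p under 0.05 (limma). Then came Mrpl35 (counterpart of L35) with log2 ratios of 1.39, 1.38 and 1.38 on the 3 arrays and Mrpl18 (counterpart of L18, which holds 5S RNA in bacteria) with 1.27, 1.33 and 1.30. Mrpl44, which has the fold of ribonuclease III, stood at 1.24, 1.23 and 1.23, and Mrpl39, a relative of threonyl-tRNA synthetase, at 1.19, 1.22 and 1.17. The other large subunit genes called higher were Mrpl21 at 1.15 ± 0.024 and Mrpl49 at 1.14 ± 0.017. No array reversed the sign of any of these 10 genes.

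At the other end, Mrpl33, the counterpart of L33, had signals of 48452, 51528 and 52072 in ES cells, against 83996, 85261 and 86982 in MEF, so that its level in ES cells was 0.593 times that in MEF (-0.75 ± 0.036, adjusted p = 6.25e-06, limma). Mrpl14, whose bacterial counterpart lies at the interface of the subunits, had 23444, 23513 and 23466 in ES cells and 35100, 34926 and 35014 in MEF (-0.58 ± 0.0057). Neither gene reached a 2-fold difference. Mrpl54 followed at -0.21, -0.25 and -0.23 on the 3 arrays, Mrpl20 (counterpart of L20) at -0.17, -0.18 and -0.22 and Mrpl36 (counterpart of L36) at -0.15, -0.17 and -0.23. Mrpl27, whose bacterial counterpart reaches towards the peptidyl transferase centre, stood at -0.16, -0.14 and -0.15, Mrpl53 at -0.09, -0.10 and -0.10 and Mrpl52 at -0.02, -0.03 and -0.02. These last 6 genes lay on the other side of 0 with median centring, between 0.0072 (Mrpl20) and 0.16 (Mrpl53), whereas Mrpl33 and Mrpl14 stayed below 0 in every alternative that was run. Mrpl33 and Mrpl14 have 1 tested probe each, so alternatives of probe choice, like those of filter and fold, could not move them. The proteins of the stalk that recruits translation factors stood apart from each other, at 0.94 ± 0.014 for Mrpl11, 0.39 ± 0.0072 for Mrpl12 and 0.14 ± 0.011 for Mrpl10. Among proteins that line the exit tunnel, Mrpl24 (0.99 ± 0.030), Mrpl22 (0.89 ± 0.018) and Mrpl23 (0.07 ± 0.0079) differed as well.

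**Figure D2:**
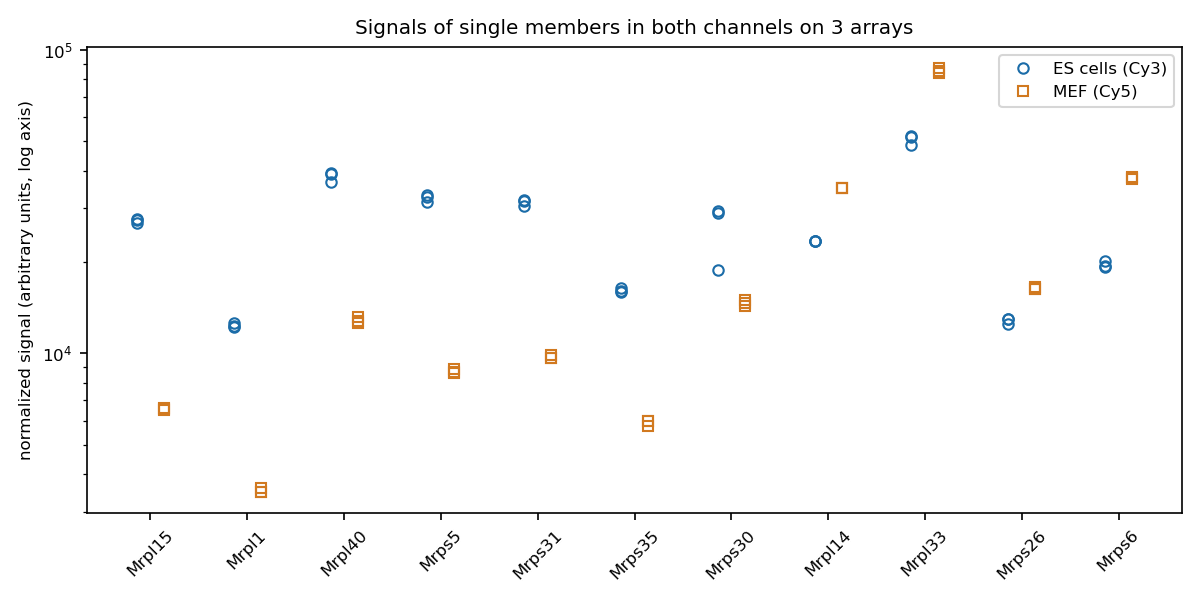
Normalized signal (log axis, arbitrary units) of single members in ES cells (circles) and MEF (squares) on each of the 3 arrays; only both cell types within a gene can be compared, since each gene has its own probe. ES cell signals lie above those of MEF for Mrpl15, Mrpl1, Mrpl40, Mrps5, Mrps31, Mrps35 and Mrps30, where 1 ES cell signal stands apart, and below them for Mrpl14, Mrpl33, Mrps26 and Mrps6.

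Among the genes with small subunit names 6 of 29 (20.7%) were called higher, against 20.3% of all tested genes, with a median of 0.58. Mrps5 led them: its bacterial counterpart S5 sits where messenger RNA enters and affects the accuracy of decoding. Its signals were 32639, 31548 and 33185 in ES cells, against 8847, 8684 and 8631 in MEF (3.72-fold, 1.90 ± 0.042, adjusted p = 6.21e-07, limma). Mrps31 had 31906, 31730 and 30595 in ES cells and 9876, 9667 and 9630 in MEF (3.23-fold, 1.69 ± 0.024), and Mrps35 had 16431, 16032 and 15892 in ES cells and 5998, 5980 and 5781 in MEF (2.72-fold, 1.45 ± 0.020). Neither protein has a bacterial counterpart. Mrps18b stood at 1.12, 1.08 and 1.20 on the 3 arrays, Mrps22 at 1.10, 1.09 and 1.10 and Mrps27, a pentatricopeptide repeat protein, at 1.05, 1.07 and 1.05. Just short of the 2-fold threshold were Mrps9 at 0.97, 0.98 and 0.98 and Mrps2 at 0.95, 0.98 and 0.96, the counterparts of bacterial S9 and S2.

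The lowest ratio of all members belonged to Mrps6, the counterpart of S6. It had signals of 20084, 19320 and 19203 in ES cells, against 37981, 37790 and 37392 in MEF, 0.518 times the MEF level (-0.95 ± 0.026, adjusted p = 1.87e-06, limma), and its other probe gave -0.74 ± 0.0045. Mrps26 followed with 12986, 12997 and 12448 in ES cells and 16477, 16292 and 16225 in MEF (-0.35 ± 0.029). Mrps36, whose product was later found to belong to the oxoglutarate dehydrogenase complex rather than the ribosome, stood at -0.25, -0.26 and -0.21 on the 3 arrays. Mrps21 was at -0.22, -0.23 and -0.25 and Mrps7, whose bacterial counterpart starts the assembly of the subunit's head, at -0.15, -0.07 and -0.12; with median centring Mrps36, Mrps21 and Mrps7 lay above 0, at 0.038, 0.032 and 0.17. Mrps14 (0.03, 0.01 and 0.06), Mrps18a (0.03, 0.05 and 0.03) and Mrps34 (0.05, 0.03 and 0.04) lay close to 0. The decoding protein Mrps12 was at 0.27 ± 0.031.

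Mrps30 was the 1 member whose arrays differed by far more than the rest. Its ES cell signal was 18823, 29016 and 29473 on arrays 1, 2 and 3, against 14362, 14682 and 14955 in MEF, which gave log2 ratios of 0.39, 0.98 and 0.98 and a mean of 0.78 ± 0.34 (adjusted p = 0.00638, limma). The median SD over arrays of a member was 0.0162, and only 2 members had an SD above 0.05, Mrps30 and Mrps18b. The scanner software had not marked the spot of array 1 as an outlier, and the gene has no other probe above background, so the value of array 1 could not be set against a second measurement.

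Of the 75 members, 30 had more than 1 tested probe, and the probes of a gene differed by a median of 0.38 on the log2 scale between the lowest and the highest, well above the spread between arrays. In 11 of the 30 genes the probes differed in their call, and in 8 in their sign. Mrpl47 had the widest gap. Its second probe read 530, 504 and 495 in ES cells, against 2811, 2717 and 2736 in MEF (-2.43 ± 0.030), opposite to the brightest probe (1.53 ± 0.014). Both probes are given below because they carry opposite results. The brightest was designed to a RefSeq transcript and lies on the minus strand at chr3:32539992-32542383 (mm7), a span of 2392 bases that crosses at least 1 splice junction. The second was designed to a clone and lies on the same strand at chr3:32534517-32534576, beyond the first in the direction of transcription. A further probe of Mrpl47 was not well above background.
Mrpl47 brightest probe: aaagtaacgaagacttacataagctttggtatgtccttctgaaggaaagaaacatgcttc
Mrpl47 second probe: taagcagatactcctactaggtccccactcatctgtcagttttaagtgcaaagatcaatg

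In several of the other genes the disagreeing probe was far dimmer. The bright probe of Mrpl52 gave -0.02 ± 0.0048 and its second probe, with 1285, 1352 and 1383 in ES cells and 594, 558 and 585 in MEF, gave 1.21 ± 0.087. Likewise Mrps15 had 0.25 ± 0.0051 by its bright and 1.18 ± 0.017 by its dim probe, and Mrpl17 had 0.28 ± 0.0096 and 1.09 ± 0.045. The dim probe of Mrps15 lies inside the 2150-base span (mm7) that its bright probe crosses. Whether that dim probe reads unspliced RNA was not tested. On the 3 arrays the bright probes gave 0.25, 0.25 and 0.24 for Mrps15 and 0.28, 0.29 and 0.27 for Mrpl17. The 3 probes of Mrpl35 gave 1.38 ± 0.0085, 0.76 ± 0.038 and 0.25 ± 0.026, and those of Mrps2 0.96 ± 0.014, 0.43 ± 0.023 and -0.26 ± 0.0038, from brightest to dimmest. For Mrpl1 they gave 1.80 ± 0.0082, 1.96 ± 0.013 and 0.93 ± 0.038. The 4 probes of Mrpl3 ran between -0.19, by the dimmest, and 0.56, and its brightest gave 0.24, 0.32 and 0.30 on the 3 arrays. Mrpl38 had 0.68 ± 0.021, 0.54 ± 0.056 and 1.16 ± 0.0047, the last by its dimmest probe, with 3044, 2944 and 2910 in ES cells where the brightest read 22758, 23083 and 22775; the brightest stood at 0.65, 0.68 and 0.70. Not every gap came from a dim probe. Mrps17 had 0.61 ± 0.016 by its brightest probe (0.61, 0.60 and 0.63 on the 3 arrays) and 1.15 ± 0.0042 by its second, whose ES cell signals were 10353, 10428 and 10306. Mrpl45 had 0.92 ± 0.031 (0.89, 0.93 and 0.95) and 1.31 ± 0.028, the second probe with 12941, 13473 and 13382 in ES cells. Mrps9 was called by its dimmer probes (1.10 ± 0.021 and 1.24 ± 0.052) but not by the brightest, and Mrps18b by its brightest (1.13 ± 0.062) but not by the second (0.50 ± 0.049). The dimmest probe of Mrps9 lies inside the 3805-base span (mm7) of the brightest, and whether it reads unspliced RNA was not tested. The second probe of Mrps18b lies on the plus strand, opposite to the brightest, so it may not measure the same transcript. Signs also differed between the probes of Mrps36, Mrps26, Mrpl43 and Mrps7, all with ratios between -0.35 and 0.16. The brightest probe of Mrpl43 stood at 0.05, 0.04 and 0.05 on the 3 arrays. In contrast, all tested probes of Mrps5, Mrpl44, Mrpl40, Mrpl49 and Mrpl18 were called higher, and 3 probes of Mrpl40 lay between 1.48 and 1.59.

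**Figure D3:**
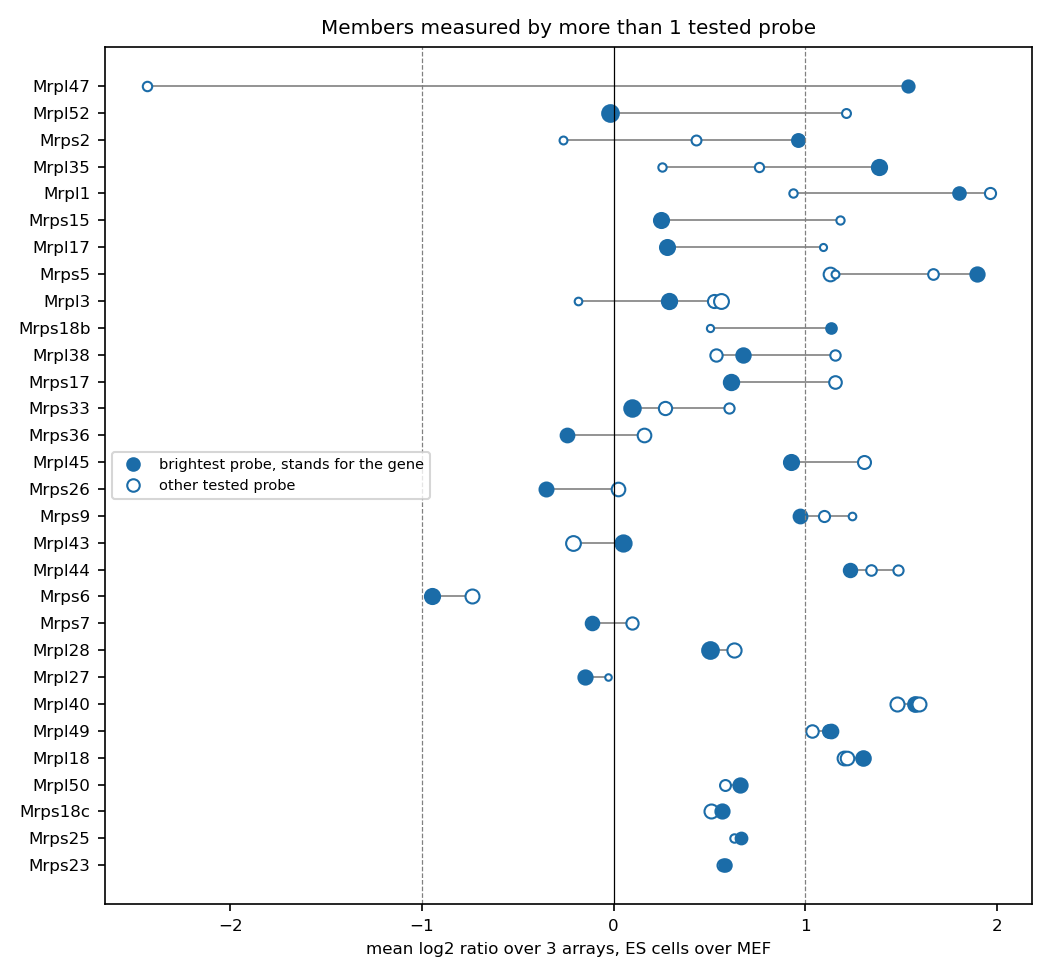
Mean log2 ratio of ES cells over MEF for each tested probe of the 30 members with more than 1; filled circles are the brightest probe, larger circles are brighter probes, and dashed lines mark a 2-fold change. The probes of Mrpl47 lie at -2.43 and 1.53, on opposite sides of both lines, while those of Mrpl40, Mrpl18 and Mrps23 nearly coincide.

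Proteins with the number of a bacterial relative (up to 36 for Mrpl and up to 21 for Mrps) and the others overlapped widely. The split goes by number alone, so counterparts of bacterial proteins that carry a higher number, such as Mrpl47 (L29), count among the others. Of 44 such genes 7 (15.9%) were called higher, with a median of 0.44, and of the 31 others 9 (29%) were called higher, with a median of 0.66; 20.3% of all tested genes were called higher, and the difference between these groups was not tested. Both of the members below 0 by at least 1.5-fold, Mrps6 and Mrpl33, carry a bacterial number. By their brightest probes the 3 relatives of bacterial S18 differed from each other: Mrps18b was at 1.13 ± 0.062, Mrps18c at 0.57 ± 0.024 and Mrps18a at 0.04 ± 0.014. By their second brightest probes, however, Mrps18b was at 0.50 ± 0.049 and Mrps18c at 0.51 ± 0.017, and their values overlapped over the arrays. By its mm7 coordinates the second probe of Mrps18b lies on the plus strand, opposite to its brightest probe. Whether it reads the same transcript was not tested. Of 7 mitoribosomal proteins named otherwise, 1 (14.3%) was called higher and none lower, against 20.3% and 22.4% of all tested genes. Their median was 0.30. The one called was Ptcd3, a pentatricopeptide repeat protein, at 1.48 ± 0.018, followed by Chchd1 at 0.75 ± 0.024. The lowest were Mrpl57, listed in the files as Mrp63, at 0.18 ± 0.031 and Aurkaip1 at -0.42 ± 0.014.

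Medians of 4 other lists of mitochondrial gene expression lay above the 0.51 of the ribosomal proteins, though that of the translation factors, at 0.54, only barely. Of all tested genes 20.3% were called higher and 22.4% lower. The shares called higher in the lists were 28%, 13.3%, 50% and 63.6%, in the order below. With median centring 24.7% of all genes were called higher, and with processed signals 26.3%. Of 25 factors that assemble the mitoribosome or modify its RNA, 7 were called higher and none lower (median 0.69; 12 higher with median centring), from the GTPase Gtpbp10 at 1.80 ± 0.023 and the RNA-binding Fastkd2 at 1.47 ± 0.024 to Mettl15 at -0.32 ± 0.042 and Mettl17 at -0.68 ± 0.044. Of 15 translation factors and messenger RNA chaperones, 2 were called higher and none lower (median 0.54; 6 higher with median centring and 4 with the scanner software's processed signals): Gfm2, the recycling factor, at 1.63 ± 0.036 and Lrpprc, which stabilises mitochondrial messenger RNA, at 1.23 ± 0.021. The lowest of them were the initiation factor Mtif3 at -0.08 ± 0.021 and the release factor Mtrf1l at -0.16 ± 0.035. Among 20 genes for charging mitochondrial tRNA, 10 were called higher and 2 lower (median 0.97), with Qrsl1 at 1.43 ± 0.014 and Cars2 at 1.39 ± 0.037 highest and Wars2 at -1.46 ± 0.083 and Lars2 at -3.10 ± 0.072 lowest. Of 22 genes of mitochondrial DNA replication, transcription and RNA processing, 14 were called higher and none lower (median 1.27). Fastkd1 at 1.86 ± 0.045 and the single-stranded DNA binding protein gene Ssbp1 at 1.85 ± 0.015 were highest there, and Hsd17b10, a subunit of mitochondrial ribonuclease P, at -0.35 ± 0.021 and Fastk at -0.78 ± 0.017 lowest.

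Medians were lower for the respiratory chain and for the cytosolic ribosome. Of all tested genes 20.3% were called higher and 22.4% lower, where 7.41% of the respiratory chain and ATP synthase genes were called higher. Of 81 nuclear-encoded subunits of the respiratory chain and ATP synthase, whose mitochondrially encoded partners the mitoribosome makes, 6 were called higher and 2 lower, with a median of 0.18. With the filter on both channels 79 genes remained, of which 4 were called higher and 2 lower. Some of the genes called higher were thus not well above background in both channels on every array. Cox8c was highest at 2.78 ± 0.19, followed by Cox7c at 2.66 ± 0.038, and Cox6a1 (-1.30 ± 0.027) and its heart and muscle form Cox6a2 (-3.52 ± 0.25) were lowest. Of 76 cytosolic ribosomal protein genes none was called higher and 20 were called lower, with a median of -0.64. Probe choice moved these counts. By the second brightest probe 7 of the 76 were higher and 15 lower, against 19.9% and 20.6% of all genes, with a median of -0.30. By the mean of probes 1 was higher and 13 lower, against 19.6% and 20.8% of all genes, with a median of -0.37. With processed signals 13 of the 76 were lower, against 24.1% of all genes. Rpl31 was highest at 0.69 ± 0.011, followed by Rpl36 at 0.63 ± 0.028, and Rpl41 (-1.81 ± 0.030) and Rplp1 (-1.86 ± 0.030) were lowest. The median of the cytosolic genes was below 0 and that of the mitoribosomal genes above 0 in every alternative that was run. Alternatives of the fold minimum could not move either median, and those of the filter left both as they were. The 2 lists overlapped, since 12 of the 76 cytosolic genes lay above 0 and 14 of the 75 mitoribosomal genes below. Cytosolic ribosomal protein genes have many processed pseudogenes, so their probes may take up RNA of more than 1 copy, and no difference between lists was tested.

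**Figure D4:**
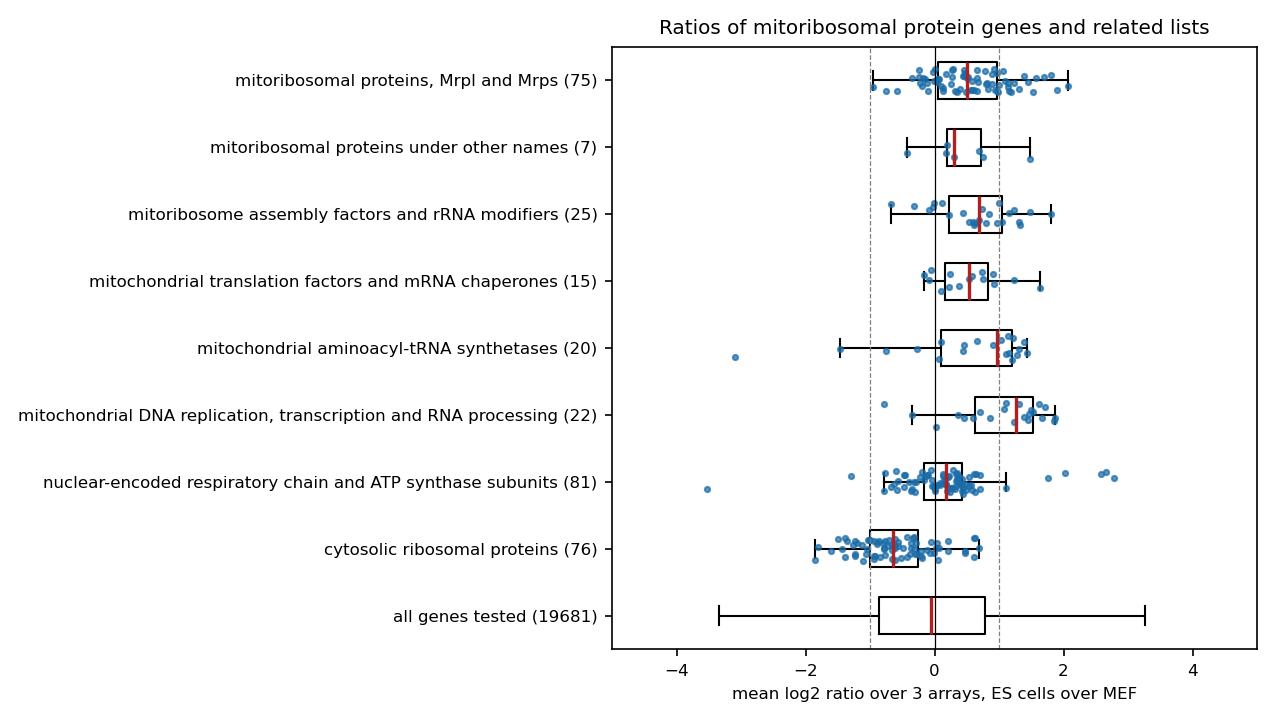
Mean log2 ratio of ES cells over MEF for the mitoribosomal protein genes, 7 related lists and all genes tested (number of genes in parentheses); points are genes, boxes give the median (red) and quartiles, whiskers reach the last gene within 1.5 times the box length, and dashed lines mark a 2-fold change. The median of mitoribosomal protein genes is 0.51, that of mitochondrial DNA, transcription and RNA genes 1.27 and that of cytosolic ribosomal protein genes -0.64.

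Promoter windows of RefSeq (GRCm38.p6, 250 bases before to 50 after the start of a gene) were at hand for 66 of the 75 members, in 72 windows. Each window was searched on both strands for CCGGAAG (bound by ETS factors such as GABP), GCGCANGCG (NRF1), AAGATGGCG (YY1), CCAAT (NF-Y), CACGTG (the Myc E-box) and TATAAA (the TATA box), and no 2 hits of different motifs overlapped in the members' windows. The ETS motif was in 33.3% of the members' windows, against 14.6% of the 15623 windows of all tested genes and 8.86% of all 32851 windows. The NRF1 motif was in 20.8%, against 11.1% and 6.25%, and the YY1 motif in 9.72%, against 2.45% and 1.40%. CCAAT was in 40.3% (37.5% for tested genes and 37.4% for all windows), the E-box in 9.72% (9.42% and 7.15%) and TATAAA in 6.94% (8.95% and 13.6%). The windows of Mrpl2 overlap and hold the same E-box, so the 7 windows with an E-box belonged to 5 of the 66 members. Likewise the 29 windows with CCAAT belonged to 26 members. Members with an ETS motif had a median log2 ratio of 0.28 (24 genes) and those without it 0.60 (42 genes). With and without the NRF1 motif the medians were 0.49 (15 genes) and 0.51 (51 genes), and with and without the YY1 motif 0.46 (7 genes) and 0.51 (59 genes). These are descriptions of letters in a window, not of binding.

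Stretches from 150 bases before to 30 after the RefSeq start (GRCm38.p6) are printed below for 4 members, on the strand of the gene, with ETS, NRF1 and YY1 motifs in capitals. They were chosen to show each of these motifs. Mrpl33 (-0.75 ± 0.036, the lowest Mrpl gene) lies at chr5:31613801-31613980 with 1 ETS motif at its start, and Mrpl45 (0.92 ± 0.031, a protein that tethers the ribosome to the inner membrane) at chr11:97315566-97315745 with 3 NRF1 motifs. Mrpl52 (-0.02 ± 0.0048) lies at chr14:54426759-54426938 with 2 ETS motifs on the other strand, and Mrps18a (0.04 ± 0.014) at chr17:46110854-46111033 with an ETS motif before and a YY1 motif after its start.
Mrpl33 promoter: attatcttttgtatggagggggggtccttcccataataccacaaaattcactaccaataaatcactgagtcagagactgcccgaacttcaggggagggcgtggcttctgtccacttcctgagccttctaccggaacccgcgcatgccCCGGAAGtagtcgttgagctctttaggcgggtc
Mrpl45 promoter: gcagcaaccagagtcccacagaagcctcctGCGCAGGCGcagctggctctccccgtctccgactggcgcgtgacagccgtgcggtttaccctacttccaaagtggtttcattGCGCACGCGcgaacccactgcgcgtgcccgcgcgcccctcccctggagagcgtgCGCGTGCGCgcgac
Mrpl52 promoter: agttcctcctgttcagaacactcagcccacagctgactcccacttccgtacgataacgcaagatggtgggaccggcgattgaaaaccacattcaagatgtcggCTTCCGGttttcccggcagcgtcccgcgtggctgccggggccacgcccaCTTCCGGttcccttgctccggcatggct
Mrps18a promoter: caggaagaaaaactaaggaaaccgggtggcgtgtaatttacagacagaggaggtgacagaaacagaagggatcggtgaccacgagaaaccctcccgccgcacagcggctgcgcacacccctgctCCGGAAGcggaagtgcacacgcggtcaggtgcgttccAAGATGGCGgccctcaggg

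Many members start back to back with another gene. By RefSeq gene positions, 23 of 66 members (34.8%) had a protein-coding gene on the other strand that started within 1000 bases upstream of theirs, against 11.2% of 12040 tested protein-coding genes. Mrpl46 and Mrps11 share such a start region, with starts 42 bases apart, and differed in ratio (0.998 ± 0.010 and 0.14 ± 0.011). The partners of 20 other members were tested and are not members, and Ighmbp2, the partner of Mrpl21, was not tested. Of the 20 partners 6 (30%) were called higher and 3 (15%) lower, against 20.3% and 22.4% of all tested genes, with a median of 0.55, and 11 of the 20 pairs had the same sign.

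Pairs that stood on opposite sides included Mrpl49 at 1.14 ± 0.017 with Fau, which encodes a cytosolic ribosomal protein, at -1.56 ± 0.012. Mrps18c at 0.57 ± 0.024 lay beside the helicase gene Helq at -1.17 ± 0.043, and Mrpl2 at 0.48 ± 0.018 beside the kinesin light chain gene Klc4 at -1.01 ± 0.027. Mrpl27 at -0.15 ± 0.0099 lay beside Eme1, a subunit of a DNA repair endonuclease, at 2.04 ± 0.056. In other pairs both genes had high ratios: Mrps5 with Zfp661 (1.26 ± 0.035), Mrpl18 with the chaperonin gene Tcp1 (0.99 ± 0.024) and Mrps27 with Ptcd2, a mitochondrial RNA processing factor (0.89 ± 0.0053). Twnk, the mitochondrial DNA helicase gene beside Mrpl43, was at 1.22 ± 0.020 where Mrpl43 was at 0.05 ± 0.0065, and Sars2, the mitochondrial seryl-tRNA synthetase gene beside Mrps12, was at 0.91 ± 0.015 where Mrps12 was at 0.27 ± 0.031. The members lay on 17 chromosomes, with 10 on chromosome 11 (median 0.53) and 8 on chromosome 17 (median 0.49).

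**Figure D5:**
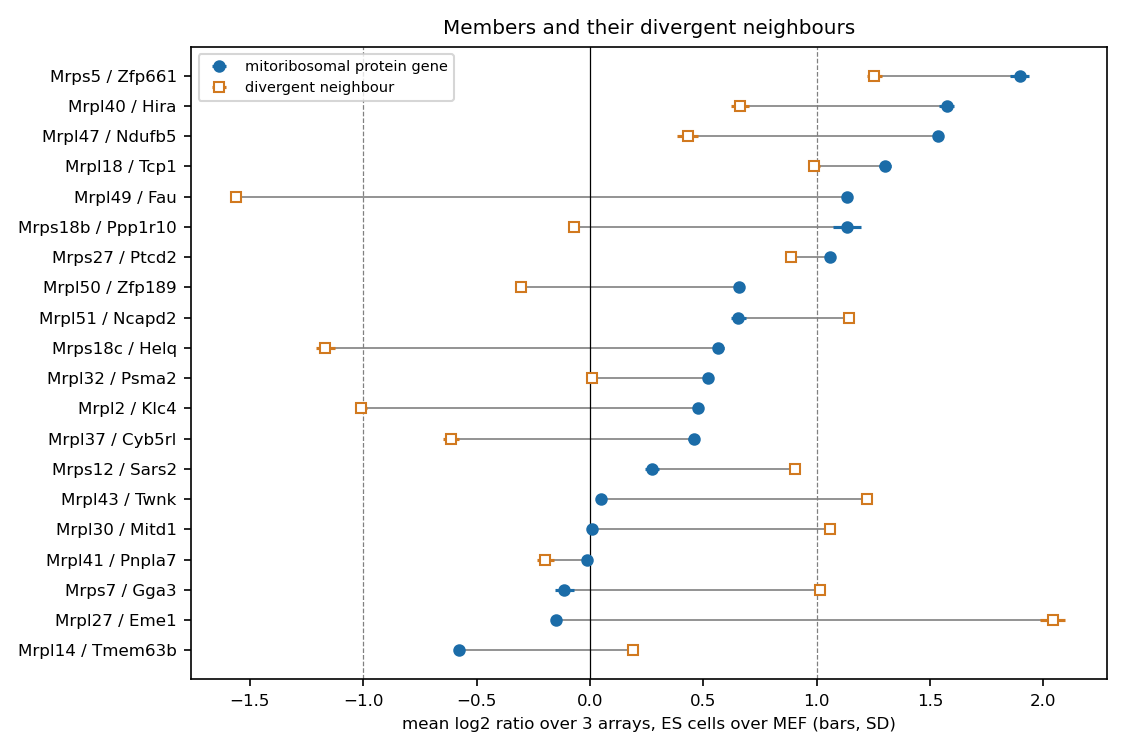
Mean log2 ratio of ES cells over MEF (bars, SD over 3 arrays) of 20 members (filled circles) and of the gene that starts within 1000 bases on the other strand (open squares), ordered by the member; dashed lines mark a 2-fold change. Partners lie between -1.56 (Fau) and 2.04 (Eme1), and 11 of the 20 pairs lie on the same side of 0.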

How the data were processed

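Each of 3 two-colour arrays carried Cy3-labelled RNA of 1 ES cell replicate and Cy5-labelled RNA of MEF, per the labels. The design names the Cy5 RNA mix2 in a sentence; the sample labels, which all give MEF, were followed. The arrays share 1 slide and 1 scan, per the file headers, so neither could be tested as a batch.

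Per the file headers, images were read with Agilent Feature Extraction 9.5.3.1 and probe coordinates use mm7. The deposited intensities are mean pixel brightness of spots and median local background, not subtracted, and processed intensities that the software had background-subtracted and dye-normalized. The deposited log10 ratio is MEF over ES cells of the processed signals, and was not used for a test. The authors' deposited log2 value table came within 0.01 of its sign-turned value for every singly spotted probe with a ratio other than 0, and its direction is thus ES cells over MEF. Its columns, with medians of 0.213, 0.0859 and -0.143, are not centred, and what was done to the other probes is unknown. It served as an alternative only.

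Background was corrected with normexp (offset 50, which shrinks ratios of dim probes) and ratios were normalized by loess within each array in limma 3.58.1 (R 4.3.3), with control spots at weight 0. Spots marked as outliers were dropped, and repeated spots of 1 probe were averaged. A probe was tested if well above background in 1 of the channels on all 3 arrays (29500 of 41174), and the brightest tested probe stood for its gene. The mean log2 ratio was tested against 0 (lmFit with an intercept, then eBayes, with Benjamini-Hochberg adjustment over 19681 genes). The number of arrays limits the precision.

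The members and lists were chosen with earlier results of these data known. Genes with values on every array are the 8 highest and 8 lowest of each subunit, those nearest the fold threshold and those whose probes disagree, given by signals or ratios of their brightest probe; other lists give their 2 highest and 2 lowest. Cytosolic ribosomal proteins were kept to names with a number and at most a short suffix, without the S6 kinases and like-named genes. Other current symbols, promoter windows and gene neighbours came from RefSeq (GRCm38.p6), and no coordinates were converted. On simulated arrays of 29500 probes for ES cells over MEF, all 40 probes at each of the log2 ratios -2, -1.5, 1.5 and 2 were called. Of 40 at 0.5, which lies under the fold minimum, and of 29300 unchanged ones, 0 were called. The simulated noise was small beside the fold minimum, so these counts were nearly fixed in advance and show only that the steps ran as written. Most simulated probes were unchanged, whereas 20.3% of real genes were called higher and 22.4% lower. The simulation therefore could not test the scaling of the arrays, and no dye bias was simulated. Alternatives changed the background step, the normalization, the signal source, the filter, the probe choice, outlier spots, gene names, the fold minimum and the arrays used.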

Additional observations from a re-analysis of the deposited data

How the results depend on the processing

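The members' median log2 ratio stayed above 0 in all 17 alternatives. In those of the fold minimum, treat, the filter and outlier spots it could not move, and was 0.51 as in the report. It was 0.55 with normexp at offset 0, 0.65 with the scanner software's processed signals and also with the authors' value table, 0.76 with median centring, 0.54 with the mean of all tested probes and 0.52 with the second brightest probe. The authors' value table repeats the processed log ratios, so it is not a separate check. Leaving out each array in turn gave 0.50 to 0.51. Members called higher numbered 28 with median centring (37.3%, against 24.7% of all genes) and 59 without a fold minimum (78.7%, against 45.9%). They numbered 33 at 1.5-fold (44%, against 30.4%) and 31 with limma's treat against 1.5-fold (41.3%, against 28.9%). The report had 16 (21.3%, against 20.3%). With processed signals members called higher numbered 24 (32%, against 26.3% of all genes). Without each array in turn they numbered 16 to 17 (21.3% to 22.7%, against 20.2% to 20.5%). All 16 called members were also called with each background or normalization step, and 13 of them with the second brightest probe or the mean of probes. Members called lower, 0 in the report, numbered 12 without a fold minimum, 2 at 1.5-fold, 2 with treat and 1 (Mrpl47) with the second brightest probe. Of all genes, 49.5%, 31.7%, 30.2% and 20.6% were called lower in these settings, in the same order.

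Without a fold minimum 9042 genes of the whole table (45.9%) were higher and 9742 (49.5%) lower. At 1.5-fold 30.4% were higher and 31.7% lower, and with treat 28.9% and 30.2%. Calls either way in the lists of related genes numbered 64 in the report and 235 without a fold minimum. At 1.5-fold they numbered 123, and with treat 111. The lists hold 7, 25, 15, 20, 22, 76 and 81 genes. Without a fold minimum 95.4% of all genes were called, so the count of 235 was not particular to the lists. Median centring moved the median of all genes to 0.11, against -0.050.

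For the 75 members, 1275 values under alternatives were computed, of which 1107 kept sign and call, 132 gained a call, 4 lost one and 32 turned sign. The filters, kept outlier spots and fold settings could not change a member's ratio. Nor could probe choice for the 45 members with 1 tested probe. Signs turned by probe choice were those of Mrpl47 (-0.45 with the mean of probes, -2.43 with the second probe), Mrpl43 (-0.082 and -0.21), Mrpl52 (0.60 and 1.21) and, with the second probe, Mrps7 (0.094), Mrps36 (0.16) and Mrps26 (0.022). Median centring turned Mrpl41 to 0.26, Mrpl52 to 0.14, Mrpl53 to 0.16, Mrpl27 to 0.13, Mrpl36 to 0.085, Mrpl20 to 0.0072, Mrpl54 to 0.050, Mrps7 to 0.17, Mrps21 to 0.032 and Mrps36 to 0.038. Processed signals and the authors' value table each turned Mrpl41 to 0.15, Mrpl52 to 0.14, Mrpl53 to 0.0066, Mrpl27 to 0.030 and Mrps7 to 0.043, and offset 0 turned Mrpl41 to 0.018 and Mrpl52 to 0.020. Mrpl30 ran from -0.0041 (without array 3) to 0.016 as each array was left out. The cause was not tested. No paired analysis was possible because the arrays form 1 group, each a ratio against the same MEF. Signals of all members were well above background in both channels.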
